A study of Mus musculus with 6 samples.

Results

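Aminoacyl-tRNA synthetases are the enzymes that join each amino acid to its transfer RNA, and 36 of their genes were followed here in CD8+ T cells sorted from mouse melanomas after treatment with IL-10/Fc or with PBS. The genes were taken by name from a list of 36 enzymes, and 36 of 36 were found among the 15898 genes of the deposited count table. They comprise 18 cytosolic enzymes, 16 mitochondrial enzymes and 2 genes, Gars and Kars, that each encode both a cytosolic and a mitochondrial form.

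Animal cells run protein synthesis in the cytosol and in the mitochondrial matrix, and most amino acids have a separate nuclear gene for the enzyme of each compartment. Several cytosolic enzymes sit together with scaffold proteins in the multi-tRNA synthetase complex, whereas others act free of it. An uncharged tRNA activates the kinase GCN2, and the transcription factor ATF4 made downstream of that kinase induces many cytosolic synthetase genes. Activated T cells raise their protein synthesis and with it their demand for charged tRNA.

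The cells came from irradiated (4 Gy) C57BL/6 mice that carried B16F10 melanoma and had received naive Thy1.1+ PMEL T cells, whose transgenic receptor recognises a melanoma antigen. The label gives the genotype as the Thy1a/Cy allele on B6.Cg with the receptor transgene Tg(TcraTcrb)8Rest. All mice of both groups also received activated Thy1.2+ PMEL T cells on day 10. In the IL-10/Fc group, 4 peritumoral doses of 20 µg of an interleukin-10 fused to an antibody Fc part were given every other day from day 10, and the PBS group received the vehicle on the same days. On day 18, PD-1+TIM-3+ Thy1.1+ CD8+ cells, the terminally exhausted state, were sorted at 500 cells per library. There were 4 IL-10/Fc libraries and 2 PBS libraries, made by Smart-Seq2, which counts reads without molecular identifiers and does not record strand. The labels do not say whether the libraries came from separate mice, so the p-values measure the spread between these libraries, which may be technical. Age and sex of the mice were not used here.

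The libraries held between 26738871 and 36941814 counts. Values below are CPM, a gene's counts scaled to a common library total, after TMM scaling, which adjusts each library for its composition. Before TMM scaling, 3 counts in a library corresponded to between 0.0812 and 0.112 CPM. The T cell markers Cd3e and Cd8a were present in every library, but the 2 PBS libraries were far apart for Cd8a. It was at 2896 to 3161 CPM in IL-10/Fc libraries, against 910 and 2292 CPM in PBS libraries. All 9 T cell markers averaged higher in IL-10/Fc cells, and their summed level was 15492 to 17678 CPM in the IL-10/Fc libraries, against 7381 and 11426 CPM in the PBS libraries. Pdcd1, which encodes the PD-1 of the sort gate, averaged 918 ± 177 CPM in IL-10/Fc cells and 1432 ± 207 CPM in PBS cells (SD, n = 4 and 2). Havcr2, which encodes TIM-3, averaged 219 ± 64.4 CPM in IL-10/Fc cells and 194 ± 8.06 CPM in PBS cells. Of 16 macrophage and dendritic cell markers tested, 15 averaged higher in IL-10/Fc cells. Their sum was 256, 877, 2061 and 1426 CPM in the 4 IL-10/Fc libraries and 290 and 613 CPM in the 2 PBS libraries, and Mrc1 and Itgam were at 0 in at least 1 library. Of 6 natural killer cell markers tested, 4 averaged higher and 2 lower in IL-10/Fc cells. The sum of these markers was 119, 218, 532 and 437 CPM in IL-10/Fc libraries, against 113 and 77.8 CPM in PBS libraries. In RNA from sorted pools, fewer cells of a type and less RNA per cell cannot be told apart.

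Synthetase transcripts were mostly lower in the IL-10/Fc libraries by small amounts, and none of the 36 passed the threshold. With edgeR's quasi-likelihood test and Benjamini-Hochberg adjustment over the 15477 genes tested, 0 of 36 synthetases had an adjusted p below 0.05, and only 1 gene of all those tested did (0.00646%). That gene was Ifi27, an interferon-induced gene. The smallest adjusted p among the synthetases was 0.255, for Nars2. DESeq2's Wald test also called 0 of 36, with a smallest adjusted p of 0.051 for Nars2. The log2 fold change, IL-10/Fc over PBS, was below 0 for 30 of 36 synthetases, where 50.7% of all genes tested were below 0. The median over the 36 was -0.30, beside -0.008 over all genes.

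At an unadjusted p below 0.05, 6 synthetases were lower and 0 were higher in IL-10/Fc cells. The same criterion took 5.52% of all genes as lower and 7.2% as higher. Every IL-10/Fc library lay below both PBS libraries for 10 synthetases, an arrangement found for 11.5% of all genes tested. Every IL-10/Fc library lay above both PBS libraries for 2 synthetases, against 12.1% of all genes. The 10 were Sars, Tars, Qars, Gars, Kars, Nars2, Fars2, Mars2, Iars2 and Tars2, and the 2 were Aars and Lars2.

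The count of lower synthetases rested in part on a single PBS library. Without PBS replicate 2, 23 of 36 were lower and the cytosolic median was 0.007, close to the 0.040 of all genes. Without PBS replicate 1, 28 of 36 were lower and the cytosolic median was -0.38. Of 13 proliferation markers, 9 averaged lower in IL-10/Fc cells, and the list's median was -0.26 on the log2 scale. At an unadjusted p below 0.05, 3 were lower and 0 higher, beside 5.52% and 7.2% of all genes. Every IL-10/Fc library lay below both PBS libraries for 4 of the 13, beside 11.5% of all genes. The sum over the 13 was 1016 to 1619 CPM in IL-10/Fc libraries, against 1416 and 1505 CPM in PBS libraries. The part of cell number, marker content or cycling in the synthetase levels was not tested.

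**Figure D1:**
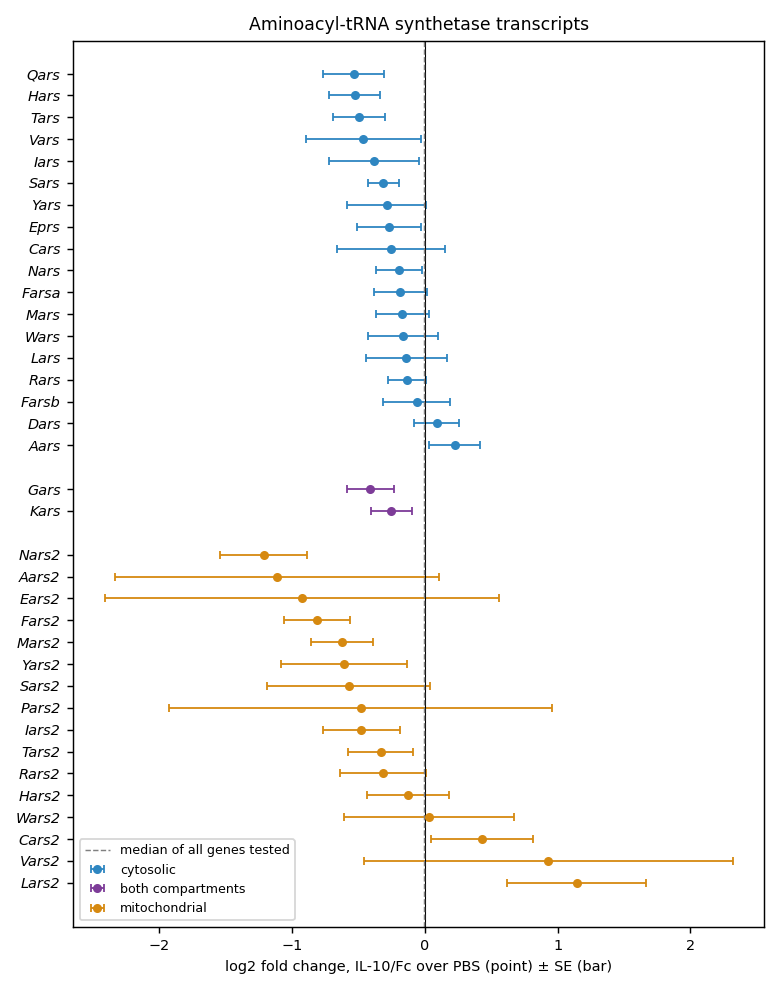
Log2 fold change of each synthetase transcript, IL-10/Fc over PBS, with its standard error as the bar, grouped from top to bottom as cytosolic, both compartments and mitochondrial. The points of 30 of 36 genes lie left of 0, and Lars2, at 1.14, is the farthest to the right.

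Among the 18 cytosolic enzymes, 16 were lower in IL-10/Fc cells and the median of the group was -0.22 (log2). Hars, which charges histidine, Sars, which charges serine, and Tars, which charges threonine, were the 3 with an unadjusted p below 0.05. Sars transcripts were at 90.01, 85.2, 82.0 and 73.5 CPM in the IL-10/Fc libraries, against 101.7 and 103.8 CPM in the PBS libraries. The 2 PBS libraries were close together and above all 4 IL-10/Fc libraries, which gave a log2 fold change of -0.31 with an SE of 0.12 (edgeR, unadjusted p = 0.035, adjusted p = 0.360). Tars was at 47.9, 73.9, 65.9 and 73.9 CPM in IL-10/Fc libraries, against 88.8 and 95.9 CPM in PBS libraries. IL-10/Fc library 1 was the lowest for Tars, and its log2 fold change was -0.50 (SE 0.20, edgeR adjusted p = 0.382).

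Hars was at 71.3, 98.9, 79.6 and 70.1 CPM in IL-10/Fc libraries, against 98.1 and 132.7 CPM in PBS libraries. The groups overlapped, since IL-10/Fc library 2 lay just above PBS library 1, and the log2 fold change was -0.53 (SE 0.19, edgeR adjusted p = 0.352). Without PBS replicate 2 it was -0.29. Hars shares 195 bases of exon with Hars2 on the opposite strand, and reads there cannot be told apart without strand. Qars, which charges glutamine within the multi-tRNA synthetase complex, was picked out after its values were seen because its groups did not overlap. It was at 52.3, 47.1, 60.6 and 35.4 CPM in IL-10/Fc libraries, against 78.3 and 63.5 CPM in PBS libraries (log2 fold change -0.54, edgeR adjusted p = 0.400).

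Aars, which charges alanine, went the other way and was also picked out after its values were seen. It was at 34.8, 29.4, 25.4 and 25.4 CPM in IL-10/Fc libraries, against 24.6 and 24.7 CPM in PBS libraries. The lowest IL-10/Fc libraries lay less than 1 CPM above the PBS libraries, and the log2 fold change was 0.22 (SE 0.19, edgeR adjusted p = 0.707). Part of the last stretch of Aars, 1326 bases, is also annotated to Exosc6 on the same strand. Dars, which charges aspartate, was the other cytosolic enzyme with a positive log2 fold change, 0.09 (SE 0.17), and its groups overlapped. It was at 193, 219, 239 and 200.1 CPM in IL-10/Fc libraries, against 165 and 235 CPM in PBS libraries. Scaled by library size alone, without the composition adjustment, the Dars value was -0.08 and the median of all genes moved by -0.17.

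The remaining cytosolic genes had groups that overlapped and unadjusted p-values above 0.05. Eprs, which charges glutamate and proline as a single fused enzyme, had a log2 fold change of -0.27. Iars for isoleucine stood at -0.38, Lars for leucine at -0.14, Mars for methionine at -0.17 and Rars for arginine at -0.13, and these are also members of the complex. Outside it, Cars for cysteine stood at -0.25, Nars for asparagine at -0.19, Vars for valine at -0.46 and Yars for tyrosine at -0.29. The phenylalanine enzyme is built from a catalytic and a second subunit, and their genes Farsa and Farsb stood at -0.19 and -0.06. Iars shares 1656 bases at 96.0% identity with the pseudogene Gm4849, and Farsb overlaps Sgpp2 by 248 bases on the opposite strand. The 2 PBS libraries were wide apart for several of these genes. Vars was at 16.9 to 32.1 CPM in IL-10/Fc libraries, against 47.1 and 17.4 CPM in PBS libraries, and without PBS replicate 1 its log2 fold change was 0.43. Lars was at 31.4 to 46.6 CPM in IL-10/Fc libraries, against 29.0 and 55.3 CPM in PBS libraries, so that the IL-10/Fc values lay between the PBS values.

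**Figure D2:**
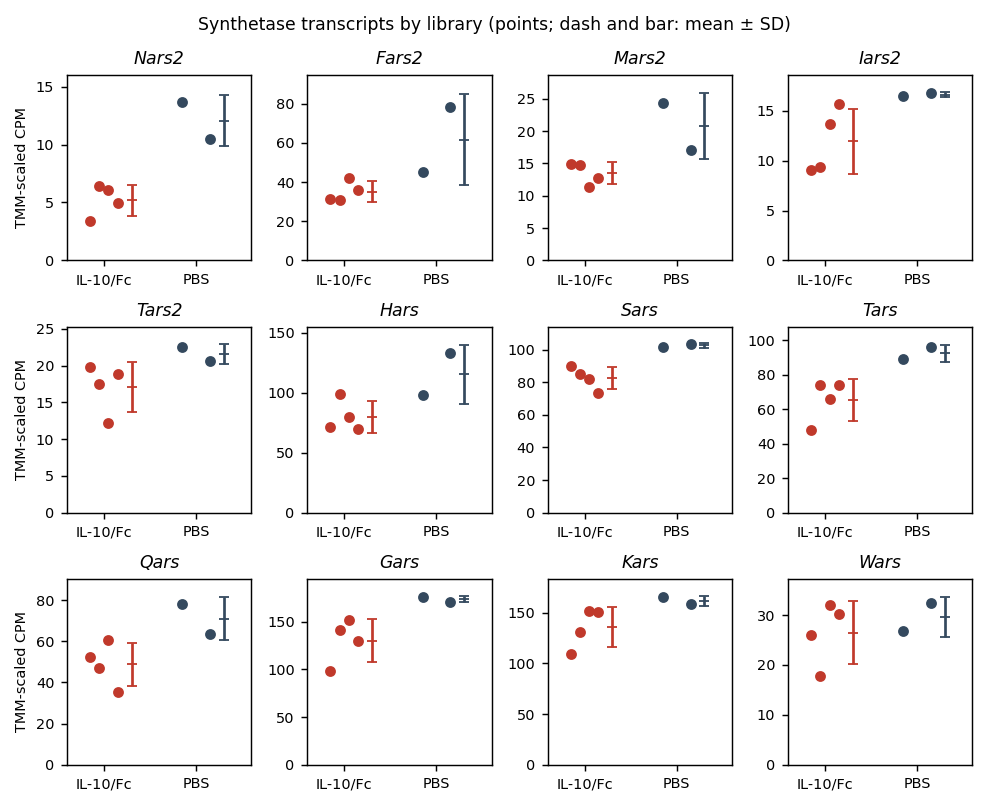
TMM-scaled CPM of 12 synthetase transcripts in each library (points), with IL-10/Fc on the left and PBS on the right of each panel and the mean ± SD beside each group. All IL-10/Fc points lie below both PBS points for Nars2, Fars2, Mars2, Iars2, Tars2, Sars, Tars, Qars, Gars and Kars, while Hars and Wars overlap.

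Wars, the tryptophan enzyme, is induced by interferon-gamma, and it did not pass the test although interferon-response genes averaged higher in IL-10/Fc cells. Wars was at 25.9, 17.9, 31.9 and 30.3 CPM in IL-10/Fc libraries, against 26.8 and 32.5 CPM in PBS libraries. Its groups overlapped, and its log2 fold change was -0.16 with an SE of 0.27 (edgeR adjusted p = 0.873). Of 14 interferon-response genes tested, 13 averaged higher in IL-10/Fc cells. At an unadjusted p below 0.05, 6 were higher, beside 7.2% of all genes tested. The sum over the 14 was 999 to 1619 CPM in IL-10/Fc libraries, against 592 and 797 CPM in PBS libraries. These 2 measures share their libraries, and the difference between them was not tested.

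Gars, for glycine, and Kars, for lysine, serve both compartments from 1 gene each. Gars was at 98.4, 141.2, 151.3 and 129.9 CPM in IL-10/Fc libraries, against 175.5 and 171.1 CPM in PBS libraries. All 4 IL-10/Fc values were below both PBS values and IL-10/Fc library 1 was the lowest, with a log2 fold change of -0.41 (SE 0.18, edgeR unadjusted p = 0.056, adjusted p = 0.404). Kars was at 109.7, 131.1, 152.1 and 150.6 CPM in IL-10/Fc libraries, against 165.5 and 158.2 CPM in PBS libraries. Its groups did not overlap either, and the log2 fold change was -0.25 (SE 0.15, edgeR adjusted p = 0.558).

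Of the 16 mitochondrial enzymes, 12 were lower in IL-10/Fc cells, and the median of the 16 was -0.48 on the log2 scale. Nars2, which charges mitochondrial asparagine tRNA, was at 3.42, 6.38, 6.05 and 4.96 CPM in IL-10/Fc libraries, against 13.7 and 10.5 CPM in PBS libraries. The groups did not overlap, and the IL-10/Fc mean was 5.20 ± 1.34 CPM against 12.1 ± 2.24 CPM in PBS cells (SD, n = 4 and 2). Its log2 fold change was -1.21 with an SE of 0.33 (edgeR unadjusted p = 0.009, adjusted p = 0.255). In the authors' deposited table, Nars2 had a log2 fold change of -1.22 and an adjusted p of 0.0293, and it was the only synthetase with an adjusted p below 0.05 there. That criterion took 1.72% of all genes of the table as lower. Nars2 lies at chr7:96951505-97064758 (+) in GRCm38 by the GENCODE M21 annotation, and 284 bases of its exons overlap C230038L03Rik on the opposite strand. It rested on 102, 183, 168 and 174 counts in the IL-10/Fc libraries and 402 and 321 counts in the PBS libraries.

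Fars2, the mitochondrial phenylalanine enzyme, was at 31.5, 30.8, 42.3 and 36.1 CPM in IL-10/Fc libraries, against 45.2 and 78.3 CPM in PBS libraries. The PBS libraries were far apart but both above the IL-10/Fc libraries, and the log2 fold change was -0.81 (SE 0.25, edgeR adjusted p = 0.290). Without PBS replicate 2 it was -0.36. Exons of Nrn1 on the opposite strand cover 501 bases of Fars2. Mars2, for mitochondrial methionine, was at 14.9, 14.8, 11.4 and 12.8 CPM in IL-10/Fc libraries, against 24.4 and 17.1 CPM in PBS libraries. Its groups did not overlap, with a log2 fold change of -0.63 (SE 0.23, edgeR adjusted p = 0.357). Without PBS replicate 1 it was -0.35.

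Iars2, for isoleucine, and Tars2, for threonine, were lower in every IL-10/Fc library than in both PBS libraries, with unadjusted p-values above 0.05. Iars2 was at 9.08, 9.35, 13.7 and 15.6 CPM in IL-10/Fc libraries, against 16.5 and 16.8 CPM in PBS libraries (log2 fold change -0.48, SE 0.29). Of its annotated exon length, 22.9% lies opposite Rab3gap2. Tars2 was at 19.7, 17.5, 12.2 and 18.9 CPM in IL-10/Fc libraries, against 22.5 and 20.6 CPM in PBS libraries (log2 fold change -0.33, SE 0.24). Rars2 for arginine, Hars2 for histidine, Sars2 for serine and Yars2 for tyrosine were also lower on average, with log2 fold changes of -0.32, -0.13, -0.58 and -0.61, and their groups overlapped. Cars2 for cysteine and Wars2 for tryptophan stood at 0.43 and 0.03, again with overlap. Exons of Cars2 overlap those of Naxd by 422 bases on the opposite strand.

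Aars2, Ears2, Pars2 and Vars2, for alanine, glutamate, proline and valine, were too sparse to compare. Ears2 had 0, 44, 13 and 109 counts in the IL-10/Fc libraries and 87 and 59 counts in the PBS libraries. The 0 allows up to 0.0961 CPM in that library before TMM scaling, a limit that covers counting error only. Pars2 had 38, 97, 5 and 143 counts in IL-10/Fc libraries and 179 and 5 counts in PBS libraries. The 2 PBS libraries of Pars2 thus differed more than the group means did. The log2 fold changes were -1.12 for Aars2, -0.93 for Ears2, -0.48 for Pars2 and 0.93 for Vars2. Their standard errors ran from 1.22 to 1.48.

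Lars2, the mitochondrial leucine enzyme, had the highest log2 fold change of the 36 and lies at chr9:123366927-123462666 (+) in GRCm38. It was at 840, 279, 312 and 282 CPM in the IL-10/Fc libraries, against 202 and 186 CPM in the PBS libraries. All IL-10/Fc libraries lay above both PBS libraries, and IL-10/Fc library 1 stood at 2.89 times the mean of the other 3. The log2 fold change was 1.14 with an SE of 0.53 (edgeR unadjusted p = 0.070, adjusted p = 0.441), and it was 0.58 without IL-10/Fc replicate 1. Lars2 was picked out after its values were seen.

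A second transcript followed Lars2 from library to library. Gm15564, an annotated long non-coding RNA, shares a stretch of 72 bases at 98.6% identity with the Lars2 transcript. Gm15564 was at 205, 70.3, 80.2 and 73.1 CPM in the IL-10/Fc libraries, against 50.04 and 46.1 CPM in the PBS libraries. Its log2 fold change was 1.16 (SE 0.51, edgeR adjusted p = 0.414). The ratio of Lars2 to Gm15564 was 4.09, 3.97, 3.89 and 3.85 in the IL-10/Fc libraries and 4.03 and 4.04 in the PBS libraries. By the SD of the log2 ratio to Lars2 over the 6 libraries, Gm15564 was the closest of 5451 genes compared, at 0.034, and the next, Alcam, was at 0.263. Whether reads of 1 of these loci were assigned to the other was not tested. The transcript AA474408 shares a longer stretch with Lars2, 97 bases at 94.8% identity, and did not follow it. It was at 0.57, 3.17, 1.66 and 0.97 CPM in the IL-10/Fc libraries, against 0.99 and 0.29 CPM in the PBS libraries. These values rest on 9 to 91 counts, and IL-10/Fc library 1 stood at 0.29 times the mean of the other 3. The mitochondrial ribosomal RNA gene mt-Rnr2 was at 7064 to 8186 CPM in IL-10/Fc libraries, against 6341 and 5993 CPM in PBS libraries, and IL-10/Fc library 1 stood at 1.07 times the mean of the other 3. For the non-coding RNA genes Gm26917 and Gm42418 that ratio was 1.73 and 1.55.

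**Figure D3:**
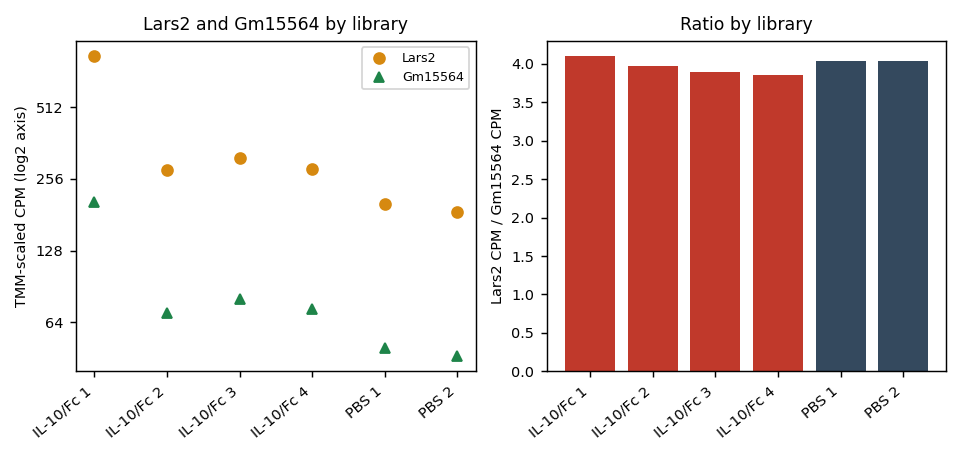
Left, TMM-scaled CPM of Lars2 (circles) and Gm15564 (triangles) in each library on a log2 axis, and right, the ratio of the 2 as bars, with IL-10/Fc libraries left of PBS libraries. Both transcripts are highest in IL-10/Fc library 1, at 840 and 205 CPM, while their ratio stays between 3.85 and 4.09.

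Because Lars2 outweighs the other mitochondrial enzymes, sums over the compartment depended on it. Summed without Lars2, the mitochondrial enzymes reached 150, 183, 190 and 204 CPM in IL-10/Fc libraries, against 242 and 262 CPM in PBS libraries. With Lars2 the sums were 991, 462, 502 and 485 CPM in IL-10/Fc libraries, against 443 and 448 CPM in PBS libraries. The groups were separate both ways, but on opposite sides. The sum over the 18 cytosolic enzymes was 1151, 1333, 1434 and 1302 CPM in IL-10/Fc libraries, against 1325 and 1679 CPM in PBS libraries, and the groups overlapped.

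Cytosolic and mitochondrial enzymes were next compared within each library, as the mean log2 CPM of the cytosolic genes minus that of the mitochondrial genes. The difference was 3.15, 2.58, 3.02 and 2.55 in the IL-10/Fc libraries, against 2.32 and 2.92 in the PBS libraries. The groups overlapped, with means of 2.83 ± 0.31 in IL-10/Fc cells and 2.62 ± 0.42 in PBS cells (SD, n = 4 and 2), 0.21 apart. The sign of that gap turned without PBS replicate 1, to -0.09, and it was 0.50 without PBS replicate 2. The mitochondrial mean gives equal weight to Aars2, Ears2, Pars2 and Vars2, which were too sparse to compare. Over mitochondrial members averaging at least 5 CPM the gap was 0.13, and without Lars2 it was 0.30. Both of these sets were chosen after seeing the data. No shift between the compartments could therefore be resolved with these 6 libraries.

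**Figure D4:**
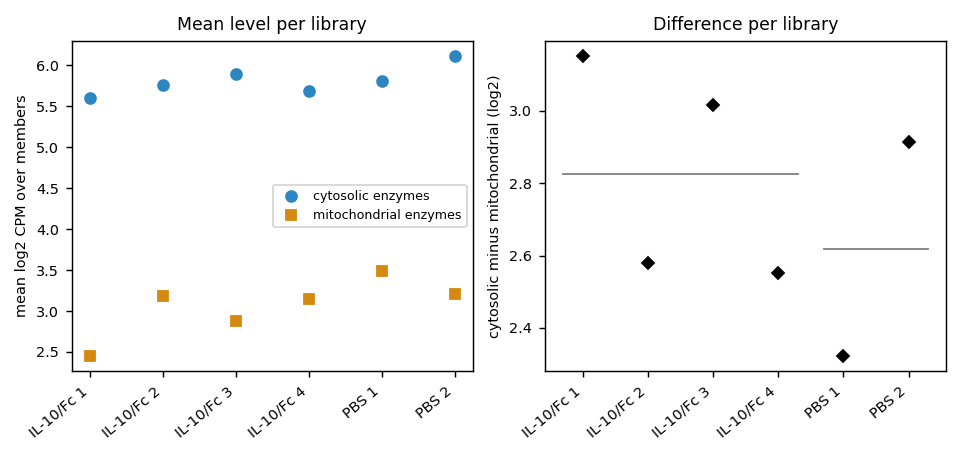
Left, mean log2 CPM over the 18 cytosolic and the 16 mitochondrial enzymes in each library, and right, the cytosolic mean minus the mitochondrial mean, with a grey line at each group's mean. The IL-10/Fc libraries, on the left of each panel, span 2.55 to 3.15 in the difference and overlap the PBS values of 2.32 and 2.92.

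Pairing the enzymes for the same amino acid gave 15 cytosolic and mitochondrial pairs, Eprs being paired with both Ears2 and Pars2. The log2 ratio of cytosolic to mitochondrial enzyme was on average higher in IL-10/Fc cells for 8 of 15 pairs, with a median gap of 0.12. For 2 pairs all IL-10/Fc libraries lay above both PBS libraries, and for 0 pairs below. Among single genes, 12.1% of all tested lay above in this way and 11.5% below, and no share was computed for ratios of other genes. The asparagine pair Nars and Nars2 had log2 ratios of 5.59, 5.12, 5.21 and 5.38 in IL-10/Fc libraries, against 3.89 and 4.68 in PBS libraries. Nars itself was at 168, 225, 227 and 210 CPM in IL-10/Fc libraries, against 203 and 271 CPM in PBS libraries, so its groups overlapped where those of Nars2 did not. The other was the alanine pair, which rests on the sparse Aars2.

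**Figure D5:**
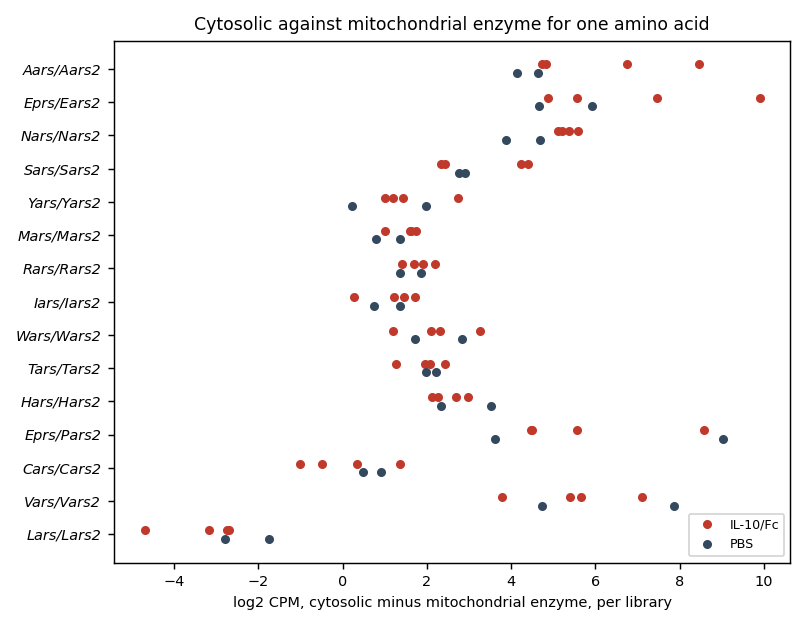
Log2 CPM of the cytosolic enzyme minus that of the mitochondrial enzyme for the same amino acid, 1 point per library, with IL-10/Fc drawn above PBS in each of 15 rows. Most rows overlap, and Nars/Nars2 shows the 4 IL-10/Fc points between 5.12 and 5.59, right of the PBS points at 3.89 and 4.68.

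Levels per transcript length, in CPM per kilobase of the longest annotated protein-coding transcript, spread widely among the members. The highest in IL-10/Fc cells was Lars2 at 109.9 ± 70.7 CPM per kilobase, against 49.8 ± 2.84 in PBS cells (SD, n = 4 and 2). The highest in PBS cells was Dars, at 97.8 ± 9.41 CPM per kilobase in IL-10/Fc cells and 91.9 ± 23.0 in PBS cells. The lowest in IL-10/Fc cells was Aars2 at 0.155 ± 0.147 CPM per kilobase, against 0.337 ± 0.0892 in PBS cells. The lowest in PBS cells was Vars2, at 0.157 ± 0.162 CPM per kilobase in IL-10/Fc cells and 0.0818 ± 0.0723 in PBS cells. By library, Aars2 was at 0.0335, 1.05, 0.8285 and 0.171 CPM in IL-10/Fc libraries, against 0.917 and 1.34 CPM in PBS libraries. Vars2 was at 0.335, 0.698, 1.69 and 0.057 CPM in IL-10/Fc libraries, against 0.136 and 0.588 CPM in PBS libraries. The groups overlapped for both genes, and these values rest on 1 to 47 counts per library.

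The enzymes were also grouped by how they work. Synthetases fall into class I and class II by the fold of their active site. Eprs, which belongs to both classes, was counted in class I only. Of 19 class I genes, 15 were lower in IL-10/Fc cells with a median of -0.27 (log2), and of 17 class II genes, 15 were lower with a median of -0.33. Of 8 enzymes of the multi-tRNA synthetase complex, 7 were lower with a median of -0.21. Of the 12 cytosolic or shared enzymes outside it, 11 were lower with a median of -0.27. The scaffold genes Aimp1, Aimp2 and Eef1e1 had 0 of 3 with an unadjusted p below 0.05 and a median of -0.13.

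Promoter motifs were counted by compartment. Promoter sequences from RefSeq (GRCm38.p6), 250 bases before to 50 bases after the start, were matched for 27 of 36 genes. The element bound by ATF4 with its partners was searched as TGATGNAA on both strands, with N any base. It was found in 4 of 11 cytosolic promoters, those of Aars, Iars, Tars and Yars, in the Gars promoter of the 2 shared genes, and in 0 of 14 mitochondrial promoters, beside 4.51% of 27025 promoters. The core of the NRF1 motif, GCATGCGC, was found in 0 of 11 cytosolic and 0 of 2 shared promoters and in 3 of 14 mitochondrial promoters, those of Rars2, Vars2 and Wars2, beside 3.05% of all promoters. The ETS motif CCGGAAG was found in 3 of 11 cytosolic, 2 of 2 shared and 4 of 14 mitochondrial promoters, beside 9.93% of all. A match is a description of the letters and not a bound site.

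The stretches below run from 60 bases before to 20 bases from the start, 5′ to 3′ on the gene's strand, with the motif in capitals. They are shown because 3 of these genes have their library values above and 1 represents the mitochondrial side. The first 3 hold the ATF4 element, read on the opposite strand, and the last holds the NRF1 core. Gars lies at chr6:55037941-55038020 (+), Tars at chr15:11399639-11399718 (-), Aars at chr8:111033782-111033861 (+) and Rars2 at chr4:34614897-34614976 (+).
Gars: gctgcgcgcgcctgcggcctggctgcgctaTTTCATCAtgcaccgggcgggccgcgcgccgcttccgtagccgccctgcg
Tars: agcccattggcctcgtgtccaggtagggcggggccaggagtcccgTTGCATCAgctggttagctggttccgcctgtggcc
Aars: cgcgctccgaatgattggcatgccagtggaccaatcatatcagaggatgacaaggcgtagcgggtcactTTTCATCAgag
Rars2: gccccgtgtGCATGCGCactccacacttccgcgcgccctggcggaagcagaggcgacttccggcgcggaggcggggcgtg
Of these genes, Gars and Tars were lower in every IL-10/Fc library than in both PBS libraries, Aars was higher in every one, and Rars2 overlapped.

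Of the 12 synthetase genes named as ATF4-responsive in mammalian cells, 11 were lower in IL-10/Fc cells, with a median of -0.26 (log2) and 2 at an unadjusted p below 0.05. The wider GCN2 and ATF4 list had 26 genes tested, 14 lower and 12 higher, with a median of -0.01. Of these, 3 were lower at an unadjusted p below 0.05 and 1 was higher, and 0 passed the adjusted threshold. Over all genes tested, 5.52% were lower and 7.2% higher at that p. Atf4 itself averaged 109 ± 41.7 CPM in IL-10/Fc cells and 113 ± 23.3 CPM in PBS cells (SD, n = 4 and 2). Phgdh, the first enzyme of serine synthesis, was at 52.1, 49.3, 53.9 and 55.8 CPM in IL-10/Fc libraries, against 99.2 and 93.6 CPM in PBS libraries (log2 fold change -0.87, SE 0.11, edgeR adjusted p = 0.148). The authors' deposited table gave Phgdh an adjusted p of 4.87e-09, the only one of the wider list below 0.05 there. Shmt2, which makes glycine from serine in mitochondria, had a log2 fold change of -0.75 (SE 0.26, edgeR adjusted p = 0.339). Ddit3, which encodes the stress factor CHOP, had a log2 fold change of 0.92 (SE 0.38, edgeR adjusted p = 0.392), and it overlaps Mars by 68 bases on the opposite strand.

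Genes that act beside the synthetases were counted next. Of 5 cytosolic elongation factor genes, 5 had a log2 fold change below 0, 2 of them at an unadjusted p below 0.05. Of all genes tested, 50.7% were below 0 and 5.52% were lower at that p. Eef1a1, which carries charged tRNA to the ribosome, averaged 2645 ± 213 CPM in IL-10/Fc cells and 3193 ± 114 CPM in PBS cells (SD, n = 4 and 2), a log2 fold change of -0.27 (SE 0.10, edgeR adjusted p = 0.341). Mitochondrial elongation factors were lower in 3 of 4 genes, with 0 at an unadjusted p below 0.05.

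Mitochondria lack a glutamine enzyme and make glutaminyl-tRNA through the amidotransferase GatCAB, and they formylate the initiator methionyl-tRNA. Of the 4 genes of these steps, 1 was lower at an unadjusted p below 0.05, beside 5.52% of all genes. The log2 fold changes of the other 3 were -0.83 for Gatb, -0.22 for Qrsl1 and -0.04 for Mtfmt. Gatc, a subunit of that amidotransferase, was at 10.7, 11.2, 10.99 and 9.23 CPM in IL-10/Fc libraries, against 19.9 and 20.6 CPM in PBS libraries. The groups stood well apart, with a log2 fold change of -0.94 (SE 0.19, edgeR unadjusted p = 0.002, adjusted p = 0.193). In the authors' deposited table, Gatc had an adjusted p of 0.000435.

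Genes of tRNA maturation and of proofreading followed. Of 20 maturation genes, 16 were lower and 4 higher. At an unadjusted p below 0.05, 2 were lower and 1 higher, beside 5.52% and 7.2% of all genes. The higher one was Hsd17b10, which is both a fatty acid and steroid dehydrogenase and a subunit of mitochondrial RNase P, the enzyme that trims the 5′ ends of mitochondrial tRNAs. It was at 643, 373, 515 and 576 CPM in IL-10/Fc libraries, against 210 and 206 CPM in PBS libraries. All IL-10/Fc libraries were well above both PBS libraries (log2 fold change 1.34, SE 0.23, edgeR unadjusted p = 0.000812, adjusted p = 0.158), and the authors' deposited table gave an adjusted p of 3.27e-06. The 2 lower ones were Tsen34 and Clp1 of tRNA splicing, at -1.07 and -0.34. Of 6 proofreading and deacylation genes, 4 were lower and 0 had an unadjusted p below 0.05.

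The leucine enzyme Lars also acts as a leucine sensor for the growth kinase mTORC1, and 12 genes of that pathway were tested, 6 lower and 6 higher. Flcn, a regulator of the Rag GTPases, averaged 15.9 ± 1.05 CPM in IL-10/Fc cells and 27.7 ± 0.311 CPM in PBS cells (SD, n = 4 and 2), a log2 fold change of -0.80 (SE 0.17, edgeR adjusted p = 0.193). The sestrins are stress-induced inhibitors of mTORC1. Sesn1 had a log2 fold change of -1.20 (SE 0.34, edgeR adjusted p = 0.270) and Sesn3 of 1.15 (SE 0.40, edgeR adjusted p = 0.339). The adjusted p in the authors' deposited table was 0.000336 for Flcn, 0.0367 for Sesn1 and 0.0646 for Sesn3.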

How the data were processed

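The authors deposited a table of raw counts per gene for 4 IL-10/Fc and 2 PBS libraries, with log2 fold changes and p-values of their own comparison in the same table, per the file headers. Per the submitters' processing notes, Trimmomatic, TopHat2 2.1.1, Bowtie2 2.2.9, Cufflinks 2.2.1, Cuffdiff and DESeq2 were used with GRCm38 (mm10). Reads were counted with a tool not given in the sources used here.

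From the deposited counts, genes were kept with filterByExpr (15477 of 15898), scaled with TMM and tested with the edgeR 4.0.16 quasi-likelihood test, robust option on, design by group, and Benjamini-Hochberg adjustment at 0.05. Log2 CPM used a prior count of 2. The common biological coefficient of variation over all genes was 0.543, and the values of single synthetases ran from 0.146 for Sars to 1.21 for Ears2. Differences of small size could not be resolved with 2 PBS libraries. Alternatives were DESeq2 1.42.0, limma 3.58.1 with voom, other scaling, no filter, a replicate block and leaving out each library. The script was tested on simulated data. Lengths came from GENCODE M21, promoters from RefSeq, and shared sequence from BLAST+ 2.17.0.

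The members and lists were chosen with earlier results of these data known. All 36 members are named. Values of every library are given for members with an unadjusted p below 0.05 or called in the authors' deposited table, for Wars, Gars and Kars, and for the extremes per length. Of each pathway list, up to 3 genes with the smallest p are named. The PBS columns of the table carry other numbers than the sample titles, and the titles were followed.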

Additional observations from a re-analysis of the deposited data

Results flagged for a closer look

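Lars2 in IL-10/Fc library 1 stood at 840 CPM, far from the other 3 IL-10/Fc libraries, the nearest of which was at 312 CPM. The gap was 0.942 of the group's whole range, above Dixon's critical value at the 95% level for 4 samples. It was 1 of 36 synthetases checked in this way, and chance gives about 1 such case in 20 groups. Gm15564 was also highest in that library, at 205 CPM, and the cause was not tested.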

How the results depend on the processing

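With 2 PBS libraries, differences near the medians given above are at the limit of what can be resolved. Of the synthetases, 0 passed the adjusted threshold under every alternative run. The number of genes past the threshold, 1 at first, was 0 scaled by library size only, 0 without the robust option, 0 with the replicate block and 750 with DESeq2's Wald test, and it ranged from 0 to 16 when each library was left out, 16 without PBS replicate 2. The cytosolic median was -0.39 scaled by library size only, where the median of all genes was -0.18, and ranged from -0.38 to 0.0066 with libraries left out. The mitochondrial median was -0.67 scaled by library size only, ranged from -0.62 to -0.31 with libraries left out, and was -0.48 without Lars2 and -0.41 over the members averaging at least 5 CPM, both chosen after seeing the data. By the numbers in the sample titles, IL-10/Fc and PBS libraries correlated at 0.06 for replicate 1 and 0.01 for replicate 2. Crossed numbers gave -0.06 and -0.01. With 2 PBS libraries these values mirror each other, so they cannot show whether the libraries were paired. The numbers in the column headers were tested neither in this way nor in the replicate block. The replicate block gave a cytosolic median of -0.29, a mitochondrial median of -0.54 and a gap between compartments of 0.25, and with it 0 synthetases passed the threshold.

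Signs of single genes turned as follows. Dars was -0.0752 and Wars2 -0.15 scaled by library size only. With limma-voom, Pars2 was 0.54 and Wars2 -0.0764. With the replicate block, Hars2 was 0.0116, Pars2 0.86 and Wars2 -0.39. With each library left out, the range was -0.58 to 0.16 for Cars, -0.15 to 0.37 for Dars, -0.57 to 0.10 for Eprs, -0.41 to 0.082 for Farsa, -0.35 to 0.30 for Farsb, -0.45 to 0.29 for Hars2, -0.53 to 0.40 for Lars, -0.39 to 0.028 for Nars, -1.44 to 3.74 for Pars2, -0.59 to 0.026 for Rars2, -1.01 to 0.43 for Vars, -0.00018 to 2.32 for Vars2, -0.59 to 0.52 for Wars2 and -0.73 to 0.35 for Yars. Among members with their library values given, leaving out 1 library moved the value by over 1.5 times for Kars (-0.16 without IL-10/Fc replicate 1), Aars (0.12 without IL-10/Fc replicate 1), Tars2 (-0.20 without IL-10/Fc replicate 3) and Wars (-0.02 without PBS replicate 2 or IL-10/Fc replicate 2, -0.30 without PBS replicate 1, -0.26 without IL-10/Fc replicate 3), beside those named in the text. The sparse Aars2 and Ears2 also moved by over 1.5 times. Aars2 was -0.73 without IL-10/Fc replicate 1 and -1.71 without IL-10/Fc replicate 2. Ears2 was -0.52 without IL-10/Fc replicate 1, -1.87 without IL-10/Fc replicate 4 and -0.59 without PBS replicate 1. The causes were not tested. The gap between compartments has no value of its own under the alternatives that change only the test.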

Other observations

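Tarsl2, a threonine enzyme related to Tars, was in the table but not among the 36 genes, and its groups overlapped (log2 fold change -0.85, SE 0.72).

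The table also lists 11 mitochondrial tRNA genes, which were looked at after the data had been seen. Of these, 9 had a log2 fold change above 0, with a median of 0.38 and 0 at an unadjusted p below 0.05. Their summed level was 63.5 to 71.8 CPM in IL-10/Fc libraries, against 62.4 and 60.5 CPM in PBS libraries, and the groups stood only just apart.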
